A study of Mus musculus with 12 samples.

Results

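Primary cells of mouse intestinal muscle were compared after 28 days in 2 culture systems: M medium on an electrospun gelatin scaffold (M scaffold) and P medium on a well plate (P plate). The 6 libraries were chosen by their labels, 3 per group, out of 12 in the series. Cells of both groups were wild type and were isolated from fresh muscle layers. P medium was DMEM with 10% FBS. M medium was serum-free Advanced DMEM/F-12 with N2, B27 without vitamin A, N-acetylcysteine at 1 mM, HEPES at 10 mM, GlutaMAX at 2 mM, Noggin at 100 ng/mL, Y27632 at 10 µM and R-spondin1 at 1 µg/mL, and both media held the antibiotic mix ABAM. Noggin binds and blocks BMP ligands, and R-spondin1 amplifies Wnt signals at the cell surface. The labels name P medium a proliferation medium and M medium a differentiation medium. Medium and support changed together, so their parts in any difference between these groups cannot be told apart. The series also holds M plate, the same M medium on a well plate, whose values are given beside the main genes, and strips of native muscle.

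The intestinal muscle wall holds smooth muscle cells in circular and longitudinal layers, with the neurons and glia of the myenteric plexus between them. Interstitial cells of Cajal pace the muscle, fibroblast-like cells relay nerve signals, and blood and lymph vessels, pericytes, macrophages and an outer mesothelium complete it. In culture with serum, smooth muscle cells are known to lose contractile proteins and to take on a synthetic state with more matrix secretion. In bulk RNA, fewer cells of a type and less RNA per cell cannot be told apart, and this holds for every cell type below.

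Libraries held 32784531 to 40935111 gene counts in P plate and 32477783 to 116643512 in M scaffold, and levels are given as CPM, gene counts relative to library totals that were scaled by TMM factors. The labels call the 3 replicates of each condition biologically independent. One library stood apart in each group. P plate replicate 1 correlated at 0.949 and 0.955 with the other P plate libraries across genes, against 0.982 between those 2; its macrophage lysozyme Lyz2 stood at 13800 CPM, against 2260 and 1590 CPM. M scaffold replicate 3 was the deepest library and differed from the others in vessel and hypoxia genes, described below. For many results a value from a fit that left out a library is also given, often the library that moved the value most. The labelled tissue was checked by markers: desmin (Des) and smooth muscle actin (Acta2) were at 486 CPM or more in all 6 libraries, and the epithelial adhesion gene Epcam was at 0.404 CPM or less.

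Of 17700 genes tested, 2674 were higher in M scaffold (15.1% of those tested) and 1701 were lower (9.61%), at an adjusted p under 0.05 in edgeR's quasi-likelihood test. Such genes are said to rise or fall. Among the rises, 2229 were at least 2-fold (12.6% of all tested genes), 1609 at least 4-fold and 213 at least 64-fold. Among the falls, 588 were at least 2-fold (3.32%), 235 at least 4-fold and 7 at least 64-fold. The median log2 fold change was 2.56 over the rises and -0.70 over the falls, beside -0.03 over all tested genes. Genes that rose took 18.4% to 20.1% of the counts of M scaffold libraries and 5.2% to 6.95% in P plate. The counts of calls without each library are in the closing section.

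**Figure D1:**
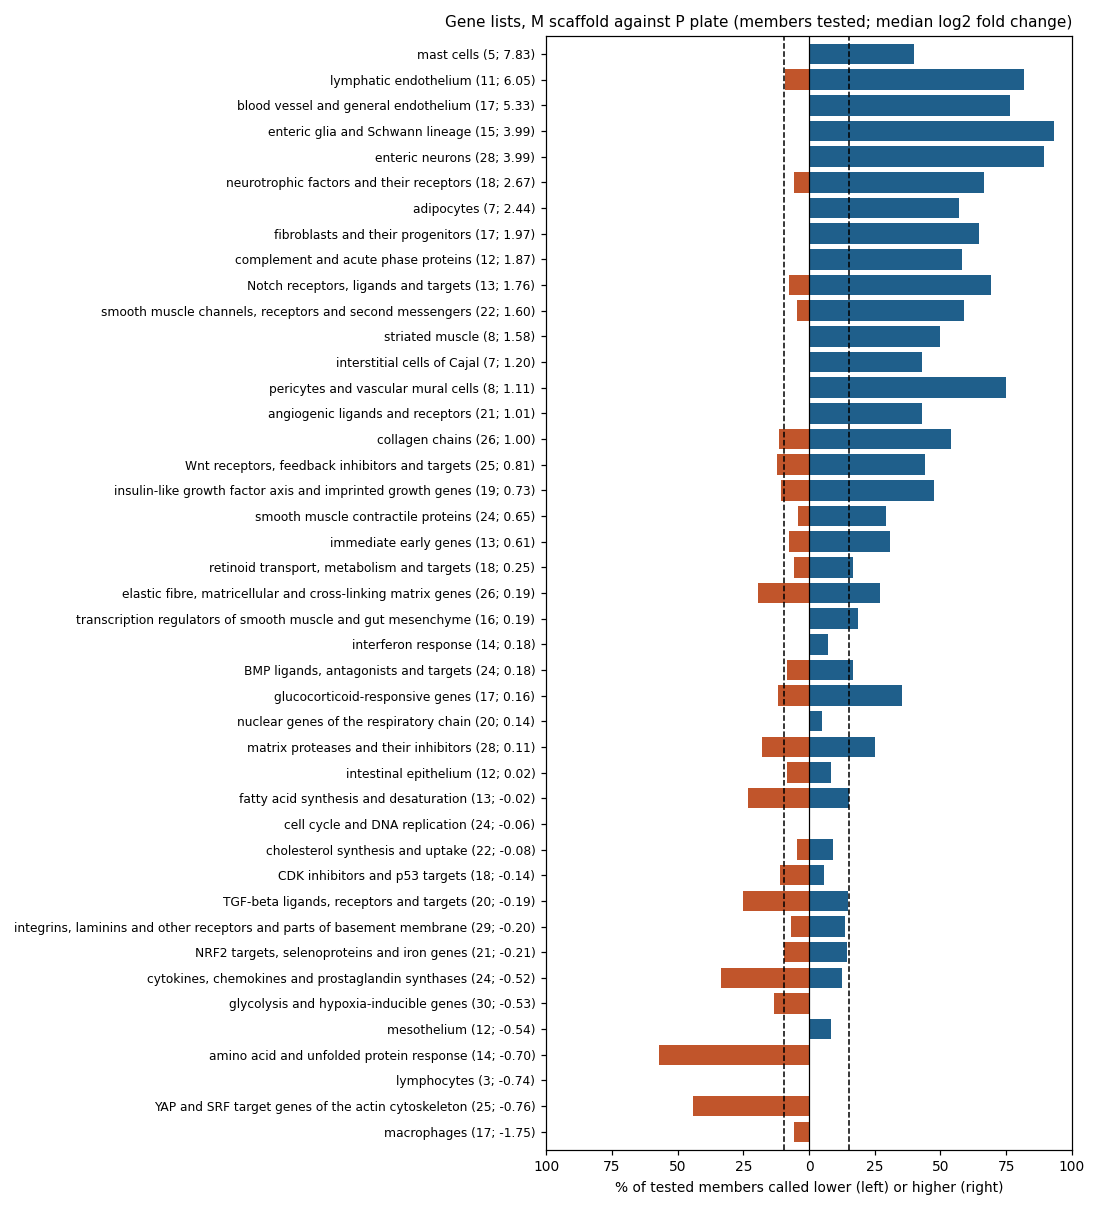
For each of 43 gene lists, the bars give the percentage of tested members called higher (right) or lower (left) in M scaffold than in P plate, and the name carries the number tested and the median log2 fold change. Dashed lines mark the shares over all tested genes, 15.1% higher and 9.61% lower; lists of lymph vessel, blood vessel, glial and neuronal genes reach furthest right, and those of the amino acid and unfolded protein response and of YAP and SRF targets furthest left.

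Genes of endothelial cells, which line blood and lymph vessels, were higher in M scaffold. In the blood vessel and general endothelium list 13 of 17 genes rose, none fell and the median log2 fold change was 5.33. In the lymphatic endothelium list 9 of 11 rose, 1 fell and the median was 6.05, also with Tbx1 at its lower bound. Pecam1, which joins neighbouring endothelial cells, stood at 0.849, 0.369 and 0.0319 CPM in P plate and at 235, 175 and 37.0 CPM in M scaffold. All 3 scaffold libraries lay above all P plate libraries, and scaffold replicate 3 was the lowest of its group. The log2 fold change was 8.43 ± 0.90 (SE; adjusted p = 9.33e-05), and 9.53 without P plate replicate 1. Cdh5, the cadherin of endothelial junctions, stood at 0.307 to 0.438 CPM in P plate and at 385, 244 and 56.9 CPM in M scaffold. It rose by 9.23 ± 0.78 on the log2 scale (adjusted p = 2.67e-05), and by 8.63 without M scaffold replicate 1.

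Tie1, an endothelial receptor tyrosine kinase (ENSMUSG00000033191, GRCm38 chromosome 4, 118471191 to 118490061, minus strand), stood at 0.0274, 0 and 0.128 CPM in P plate and at 258, 186 and 34.1 CPM in M scaffold. The rise was 11.56 ± 1.07 on the log2 scale (adjusted p = 4.23e-05), and 13.21 without P plate replicate 3. Cldn5, the claudin of endothelial tight junctions, went from 0.0307 to 0.0638 CPM to 252, 183 and 28.6 CPM. Both genes were lowest in scaffold replicate 3 and did not overlap between the groups. Gpihbp1, which anchors lipoprotein lipase in capillaries, had 3 counts over the P plate libraries and 6419 over the scaffold libraries. The ratio of levels was 1220 (95% counting interval 418 to 5930, counting error only), and the fitted log2 fold change of 10.75 was 11.61 without P plate replicate 1. The guidance receptor Robo4 had 2 counts in P plate and 36.4 to 51.1 CPM in scaffold replicates 1 and 2, with 6.12 CPM in replicate 3.

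Prox1, the transcription factor that sets lymphatic identity, stood at 0.849, 0.707 and 0.893 CPM in P plate and at 155, 77.4 and 15.1 CPM in M scaffold. The groups did not overlap, and the rise was 6.65 ± 0.80 (adjusted p = 0.000196), or 5.82 without M scaffold replicate 1. Reln, which codes for the secreted protein reelin of lymphatic cells, was at 0.411 to 0.925 CPM in P plate and at 146, 99.2 and 48.6 CPM in M scaffold. It rose by 7.27 ± 0.52 (adjusted p = 1.27e-05), while M plate held 385 to 531 CPM. Tbx1, a T-box factor of lymphatic development, had no counts in P plate and 21.9, 14.3 and 2.96 CPM in M scaffold. With P plate set to a floor of 3 counts over the group, M scaffold was at least 438-fold higher (adjusted p = 0.000587). Pdpn, a mucin-type glycoprotein that fibroblasts and mesothelium also make, was the member that fell, from 56.8 to 85.1 CPM to 35.2 to 50.1 CPM (log2 fold change -0.58 ± 0.19, adjusted p = 0.0449). That call was lost without P plate replicate 3 and without M scaffold replicate 1 or 2.

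The summed level of the general endothelium list was 96 to 159 CPM in P plate, 2060, 1590 and 536 CPM in M scaffold replicates 1 to 3, and 2830 to 3220 CPM in M plate. For the lymphatic list it was 131 to 170 CPM, then 2340, 1740 and 419 CPM, and 4550 to 5820 CPM in M plate. Scaffold replicate 3 thus held less than the other scaffold libraries in both lists and more than any P plate library. When P plate replicate 1 and M scaffold replicate 3 were both left out, 15 endothelial and 9 lymphatic genes rose.

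The list of ligands and receptors of vessel growth shares Kdr, Flt1, Tek, Tie1 and Flt4 with these lists. Of its 21 genes 9 rose and none fell, beside 15.1% and 9.61% of all tested genes, and 7 rose without P plate replicate 3. Angpt2, a ligand of the Tie2 receptor, stood at 4.46 to 8.79 CPM in P plate and at 380, 328 and 63.0 CPM in M scaffold (log2 fold change 5.27 ± 0.66, adjusted p = 0.000244). Flt4, the receptor for the lymphatic growth factors VEGF-C and VEGF-D, went from 19.5, 3.07 and 3.89 CPM to 687, 428 and 74.8 CPM. It rose by 5.49 ± 0.93, by 6.86 without P plate replicate 1 and by 4.83 without M scaffold replicate 1. Vegfd, one of its ligands, rose from 47.4 to 113 CPM to 265 to 695 CPM (adjusted p = 0.0013). Vegfa, the main ligand of blood vessel growth, was at 262 to 465 CPM in P plate and at 44.3, 26.9 and 229 CPM in M scaffold and was not called (adjusted p = 0.059). Without both P plate replicate 1 and M scaffold replicate 3, 15 of the 21 rose and 2 fell.

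In the Notch pathway, a contact signal between neighbouring cells that acts in vessels among other tissues, 9 of 13 genes rose and 1 fell, with a median of 1.76. The endothelial ligand Dll4 stood at 0.0307 to 0.0957 CPM in P plate and at 41.1, 30.7 and 6.64 CPM in M scaffold, a rise of 8.70 ± 0.81 (adjusted p = 4.58e-05). The target gene Hey1 went from 0.861 to 1.18 CPM to 3.81 to 8.60 CPM and rose by 2.63 ± 0.33. Both were lowest in scaffold replicate 3. The receptor Notch2 fell from 227 to 268 CPM to 112 to 193 CPM (log2 fold change -0.76 ± 0.17, adjusted p = 0.00881). The part of endothelial cells in the Notch result was not tested.

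Neuronal genes were higher in all 3 scaffold libraries. Of 28 genes of the enteric neuron list 25 rose and none fell, with a median of 3.99, also with Chat, which had no counts in P plate, at its lower bound. All scaffold libraries lay above all P plate libraries for 27 of the 28, against 19% of all tested genes. The summed list was at 60.3 to 135 CPM in P plate, 1030, 973 and 1690 CPM in M scaffold and 384 to 562 CPM in M plate. Elavl4, a neuronal RNA-binding protein, stood at 0.246, 0.768 and 0.67 CPM in P plate and at 17.6, 18.3 and 17.2 CPM in M scaffold. Its 3 scaffold libraries were nearly level, and the rise was 4.99 ± 0.41 (adjusted p = 2.28e-05).

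Nos1, the neuronal nitric oxide synthase of inhibitory motor neurons (ENSMUSG00000029361, chromosome 5, 117781032 to 117958840, plus strand), stood at 2.87, 1.32 and 3.83 CPM in P plate and at 168, 112 and 239 CPM in M scaffold. The rise was 6.01 ± 0.51 (adjusted p = 2.76e-05), and M plate held 38.4 to 90.7 CPM. Snap25, a protein of synaptic vesicle fusion, went from 0.383, 0.523 and 1.31 CPM to 45.6, 34.3 and 42.3 CPM. It rose by 5.80 ± 0.43 (adjusted p = 1.49e-05), and by 6.52 without P plate replicate 3. Neither gene overlapped between the groups. Gap43, a protein of growing axons, stood at 6.27 to 12.5 CPM in P plate and at 243, 304 and 416 CPM in M scaffold. It rose by 5.20 ± 0.31 (adjusted p = 7.09e-06) and was also higher in M scaffold than in M plate, by 1.44 (adjusted p = 0.0268). Tubb3, the neuronal tubulin, rose from 29.9, 3.94 and 10.8 CPM to 70.5, 91.1 and 109 CPM (2.6 ± 0.57, adjusted p = 0.00796; 3.65 without P plate replicate 1).

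Penk, which codes for the enkephalin peptides, rested on 1 library for its size. It stood at 3.2, 0.584 and 1.02 CPM in P plate and at 13.6, 16.7 and 319 CPM in M scaffold. Its log2 fold change was 6.17 ± 1.28 (adjusted p = 0.00557) and 3.23 without M scaffold replicate 3 and 7.21 without P plate replicate 1. Vip and Calb2, markers of enteric motor neurons and of other enteric neurons, rose as well: Vip from 0.712, 3.57 and 13.0 CPM to 109, 68.5 and 118 CPM, and Calb2 from at most 0.123 CPM to 7.13, 4.32 and 2.92 CPM (6.50 on the log2 scale, 8.10 without P plate replicate 2). Th, the enzyme that makes catecholamines, was near its floor in both groups, at no more than 0.186 CPM, and was not called.

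Of the 15 genes of enteric glia and their Schwann-related lineage, 14 rose and none fell, with a median of 3.99. The summed list was at 63.2 to 107 CPM in P plate, 975, 1250 and 1920 CPM in M scaffold and 450 to 618 CPM in M plate, and 7 members were called higher in M scaffold than in M plate. Sox10, the lineage factor of neural crest and glia, stood at 5.61, 4.43 and 10.4 CPM in P plate and at 66.1, 77.9 and 166 CPM in M scaffold. It rose by 3.93 ± 0.43 (adjusted p = 0.000105), or by 3.41 without M scaffold replicate 3. Scaffold replicate 3 was the highest library and the groups did not overlap. S100b rose from 1.35 to 2.2 CPM to 10.3, 11.5 and 29.1 CPM (3.18 ± 0.40, or 2.54 without M scaffold replicate 3). Gfap, an intermediate filament of glia, went from 0.958, 3.01 and 2.58 CPM to 5.87, 6.03 and 15.9 CPM (2.09 ± 0.46, adjusted p = 0.008; 1.45 without M scaffold replicate 3).

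Factors that feed neurons and glia, and their receptors, gave 12 rises and 1 fall among 18 genes, with a median of 2.67. Receptors led: Ret, the receptor of GDNF-family ligands, stood at 1.2, 1.97 and 3.19 CPM in P plate and at 38.3, 27.3 and 36.3 CPM in M scaffold (4.01 ± 0.40, adjusted p = 6.35e-05). Its co-receptor Gfra1 went from 15.8, 4.03 and 11.7 CPM to 129, 181 and 220 CPM (4.07 ± 0.45). Ngfr, the low-affinity neurotrophin receptor of glia and neurons, rose from 15.6 to 31.0 CPM to 304, 461 and 673 CPM (4.28 ± 0.38), and was higher than in M plate as well (adjusted p = 0.0431). Several ligands rose too. Gdnf went from 6.57, 1.08 and 3.0 CPM to 17.3, 15.2 and 56.9 CPM (3.07, adjusted p = 0.00584), while the neurotrophin Bdnf, the one gene of the list that fell, went down from 51.4, 93.3 and 116 CPM to 13.3, 19.9 and 27.1 CPM (-2.11 ± 0.31, adjusted p = 0.00074); 3 fell without P plate replicate 1.

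**Figure D2:**
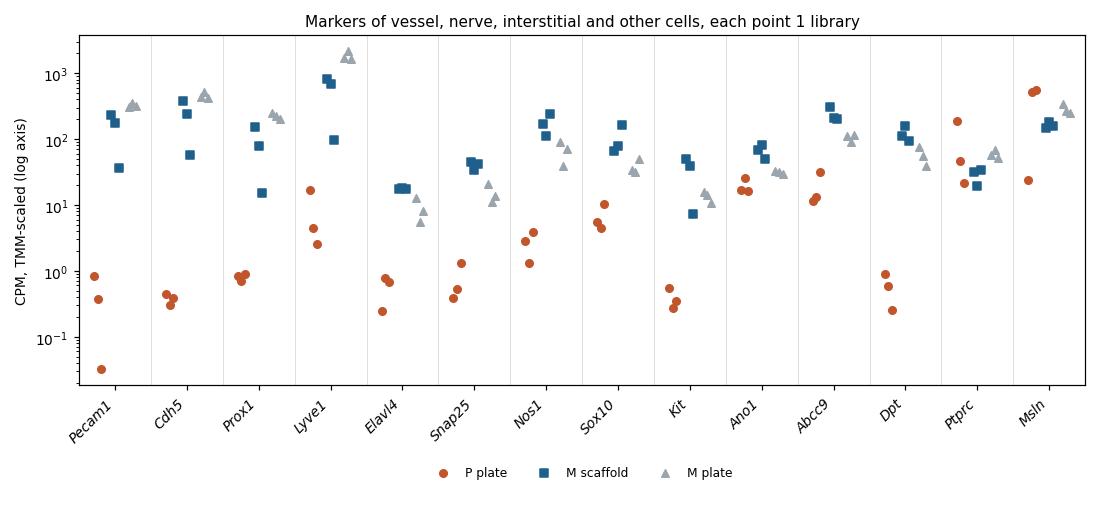
Each point is the level of 1 library in CPM on a log axis, for markers of endothelium (Pecam1, Cdh5), lymphatic endothelium (Prox1, Lyve1), neurons (Elavl4, Snap25, Nos1), glia (Sox10), interstitial cells of Cajal (Kit, Ano1), mural cells (Abcc9), fibroblasts (Dpt), leukocytes (Ptprc) and mesothelium (Msln). P plate and M scaffold do not overlap for the 12 genes from Pecam1 to Dpt, and they overlap for Ptprc and Msln; the third symbol shows M plate.

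Interstitial cells of Cajal were represented by 7 genes, of which 3 rose and none fell. Kit, the receptor that marks these cells and mast cells, stood at 0.547, 0.277 and 0.351 CPM in P plate and at 49.7, 38.7 and 7.41 CPM in M scaffold. It rose by 6.32 ± 0.69 (adjusted p = 0.000103), and M plate held 10.6 to 15.7 CPM. Ano1, their chloride channel, went from 16.8, 25.8 and 16.3 CPM to 67.8, 80.0 and 50.5 CPM, a rise of 1.75 ± 0.21 (adjusted p = 0.000177), and was also higher than in M plate (adjusted p = 0.0289). Neither gene overlapped between the groups, and scaffold replicate 3 was lowest for both. In the fit that left out P plate replicate 1, 6 of the 7 rose. Mast cells also carry Kit, and 2 of 5 tested mast cell genes rose, or 4 with DESeq2. The carboxypeptidase Cpa3 had 3 counts over P plate and stood at 2.06, 0.745 and 2.34 CPM in M scaffold, a ratio of levels of 66.9 (95% counting interval 22.7 to 326). The tryptase Tpsb2 had 1 count over P plate and stood at 4.12, 0 and 4.48 CPM in M scaffold, a ratio of 361 (64.5 to 14300), and kept its call in 1 of the 6 fits that left out a library. The summed mast cell list was at 0.109 to 4.37 CPM in P plate and at 13.3, 4.66 and 10.4 CPM in M scaffold, and the proteases Mcpt4 and Cma1 had no counts in scaffold replicate 2, where Kit was at 38.7 CPM. The part of mast cells in the Kit result was not tested.

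Genes of pericytes and vascular mural cells rose in 6 of 8 cases, and none fell, beside 15.1% and 9.61% of all tested genes. The rises numbered 4 without P plate replicate 2 or without M scaffold replicate 2 or 3, and 1 gene fell without M scaffold replicate 3. Abcc9, the sulphonylurea receptor subunit of potassium channels in these cells, stood at 11.5, 13.2 and 31.2 CPM in P plate and at 309, 210 and 203 CPM in M scaffold (3.69 ± 0.37, adjusted p = 6.86e-05; 4.31 without P plate replicate 3). Its channel partner Kcnj8 went from 20.4, 24.7 and 62.1 CPM to 298, 209 and 226 CPM. It rose by 2.77 ± 0.37 (3.46 without P plate replicate 3), and by 2.00 against M plate (adjusted p = 0.0255). Replicate 3, low in endothelial genes, was close to replicate 2 in both.

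Fibroblast genes rose in 11 of 17 cases and none fell, with a median of 1.97. The number of rises was 7 when P plate replicate 3 was left out, and also when M scaffold replicate 2 was. Dpt, the matrix protein dermatopontin, stood at 0.903, 0.584 and 0.255 CPM in P plate and at 112, 156 and 92.7 CPM in M scaffold. It did not overlap and rose by 7.67 ± 0.60 (adjusted p = 1.84e-05). Clec3b, which codes for tetranectin, went from at most 0.184 CPM to 36.0, 29.1 and 13.4 CPM (7.99 ± 0.88; 7.39 to 8.72 over the 6 fits that each left out 1 library). Pdgfra, the growth factor receptor of fibroblast-like cells, overlapped between the groups, at 505, 1560 and 1060 CPM in P plate and 1140, 2260 and 996 CPM in M scaffold, and was not called. Pi16, a marker of fibroblast progenitors, rested on 1 library for its size. It stood at 1.26, 1.12 and 28.3 CPM in M scaffold and at 0.319 to 1.45 CPM in P plate, and its log2 fold change fell from 3.86 (adjusted p = 0.0396) to 0.74 without M scaffold replicate 3; the call was lost there and without P plate replicate 2 or 3.

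Macrophage and mesothelial genes varied widely among the P plate libraries. The summed macrophage list stood at 24800, 4930 and 2710 CPM in P plate and at 2790, 2190 and 4750 CPM in M scaffold. Of 17 tested genes 1 fell and none rose in edgeR, with a median of -1.75, whereas 11 fell in DESeq2 and none in limma-voom. That gene, the colony-stimulating factor receptor Csf1r, overlapped between the groups (776, 295 and 79.5 CPM against 98.7, 53.9 and 117 CPM) and was called in 2 of the 6 fits that left out 1 library. Its log2 fold change was -2.10, and -1.04 without P plate replicate 1. Leaving out P plate replicate 3 gave 12 macrophage falls, and leaving out replicate 2 gave 3. The mesothelial list summed to 499, 4880 and 3870 CPM in P plate and to 2180, 2310 and 1510 CPM in M scaffold, with 1 rise and no fall among 12 genes. Of these, 8 fell without P plate replicate 1. Msln, the surface protein mesothelin, stood at 24.3, 524 and 551 CPM in P plate and at 149, 180 and 160 CPM in M scaffold (adjusted p = 0.28). The T cell gene Cd3e was at 0.018 CPM or less in every library of both groups.

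**Figure D3:**
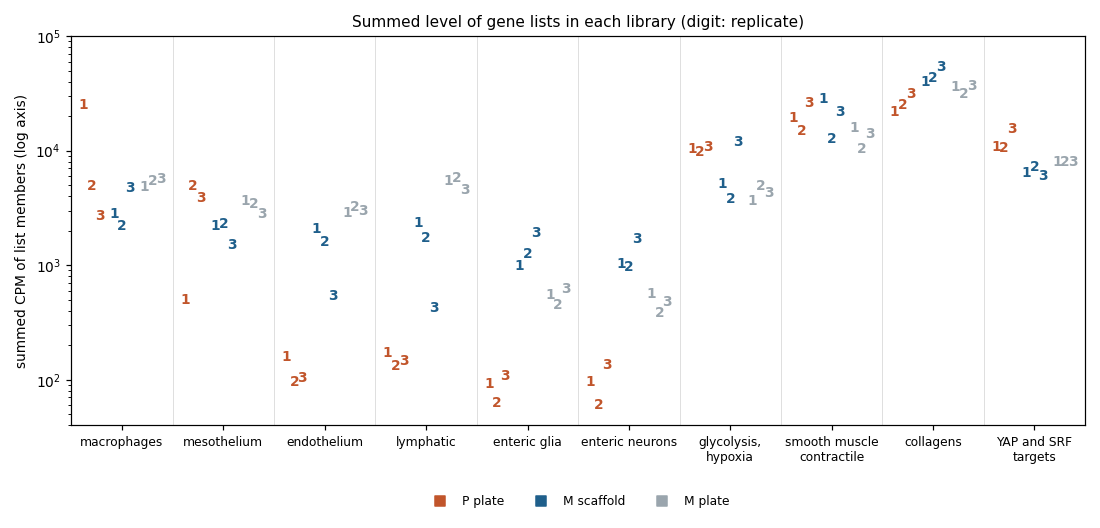
The summed CPM of the members of 10 gene lists is shown for each library on a log axis, with the replicate number as the symbol and the colour as the group. P plate replicate 1 is highest for macrophage genes and lowest for mesothelial genes, and M scaffold replicate 3 is lowest of its group for both endothelial lists and highest for glycolysis and hypoxia genes.

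Most smooth muscle contractile genes were not called. Of 24 members 7 rose and 1 fell, beside 15.1% and 9.61% of all tested genes, and 16 were not called. The median was 0.65, and the rises numbered 6 to 10 over the fits that left out libraries. The classic markers were among the genes not called. Acta2, smooth muscle actin, stood at 3400, 1730 and 4070 CPM in P plate and at 2370, 1120 and 1840 CPM in M scaffold (-0.79 ± 0.36, adjusted p = 0.141). Myh11, the smooth muscle myosin heavy chain, stood at 1180, 367 and 680 CPM and at 2470, 832 and 1700 CPM (1.17 ± 0.48, adjusted p = 0.1). Tagln (adjusted p = 0.0663), Des (0.354), Actg2 (0.368) and Cnn1 (0.446) also overlapped between the groups. In native strips Acta2 was at 9502 to 9621 CPM and Myh11 at 11160 to 12960 CPM, above all cultures.

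The members that rose were Synm, Pcp4, Casq2, Pgm5, Synpo2, Mylk and Hspb6. Synm, which codes for the intermediate filament protein synemin (ENSMUSG00000030554, chromosome 7, 67730160 to 67759742, minus strand), stood at 1.75, 5.1 and 5.42 CPM in P plate and at 500, 98.5 and 401 CPM in M scaffold. The rise was 6.35 ± 0.68 (adjusted p = 9.52e-05), with replicate 2 the lowest scaffold library. Casq2, the calcium-binding calsequestrin of the sarcoplasmic reticulum, went from 0.739 to 1.56 CPM to 36.6, 22.5 and 33.1 CPM (4.68 ± 0.41, adjusted p = 3.34e-05). Pgm5, a protein of muscle adherens junctions, went from 30.1 to 38.2 CPM to 427, 184 and 278 CPM (3.12 ± 0.31), and Synpo2, an actin-bundling Z-disc protein, from 54.4 to 89.0 CPM to 587, 276 and 384 CPM (2.48 ± 0.28). Mylk, the myosin light chain kinase, rose by 1.88 (adjusted p = 0.00099). The fall was in Cald1, the actin-binding caldesmon, from 1862, 1897 and 3055 CPM to 1373, 1074 and 1298 CPM (-0.86 ± 0.21, adjusted p = 0.012), a call lost without M scaffold replicate 2, while 4 members fell without P plate replicate 2. Scaffold replicate 2 had the lowest summed level of the list in its group, 12700 CPM against 28200 and 21800 CPM.

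**Figure D4:**
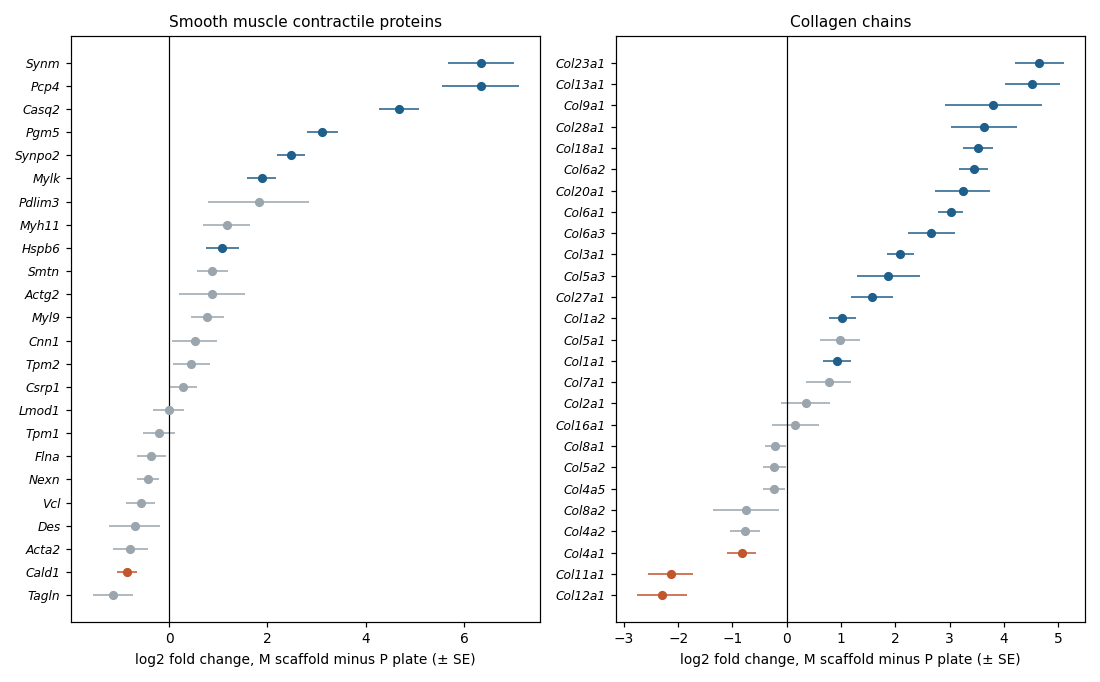
Log2 fold changes of M scaffold over P plate with their standard errors are shown for the 24 contractile genes (left) and the 26 collagen chains (right). Blue points rose, orange points fell and grey points were not called; Synm, Pcp4 and Casq2 lead on the left, while Acta2, Des and Tagln lie below 0 in grey, and 14 collagens rose and 3 fell on the right.

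Channels, receptors and second messenger genes of smooth muscle rose more often: 13 of 22 rose and 1 fell, with a median of 1.60. Over all tested genes the shares were 15.1% and 9.61%. The rises in this list numbered 9 without M scaffold replicate 1. Pln, phospholamban, which restrains the calcium pump of the sarcoplasmic reticulum, had 2 counts over P plate and stood at 25.8, 15 and 7.76 CPM in M scaffold. The ratio of levels was 624 (95% counting interval 172 to 5150), and the fitted log2 fold change was 9.48. Without P plate replicate 2, which held both P plate counts, the fitted value was 12.60 and then rests on the prior count. Chrm2, a muscarinic acetylcholine receptor, went from 2.49, 7.35 and 7.4 CPM to 169, 110 and 45.7 CPM, a rise of 4.24 ± 0.56 (adjusted p = 0.000367). Kcnma1, the large-conductance calcium-activated potassium channel, rose from 3.54 to 7.35 CPM to 40.3, 35.2 and 50.4 CPM (2.88 ± 0.25, adjusted p = 3.07e-05) and was higher than in M plate (adjusted p = 0.029). Ryr2, a calcium release channel, rose by 2.79 ± 0.38 (adjusted p = 0.000447). None of these overlapped between the groups. Atp2a2, the calcium pump SERCA2, fell by 0.53 on the log2 scale (adjusted p = 0.0403) and kept the call in 1 of 6 fits that left out a library.

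Among 16 transcription regulators of smooth muscle and gut mesenchyme 3 rose and none fell, beside 15.1% and 9.61% of all tested genes. The median was 0.19, and 5 rose without both libraries that stood apart. Myocd, the coactivator of SRF that drives the contractile programme, stood at 0.329, 2.31 and 1.5 CPM in P plate and at 33.8, 10.1 and 7.28 CPM in M scaffold (3.63 ± 0.71, adjusted p = 0.00417; 2.67 without M scaffold replicate 1). Its partner Srf overlapped between the groups, with P plate reaching 163 CPM and M scaffold at 113 to 158 CPM (adjusted p = 0.684). Striated muscle genes gave 4 rises among 8 tested, or 2 without both libraries that stood apart. Ckm, muscle creatine kinase, went from 0.0638 to 0.137 CPM to 54.0, 10.7 and 35.2 CPM (8.35 ± 0.73, adjusted p = 3.07e-05) and was above M plate by 2.22 (adjusted p = 0.0409), while the skeletal muscle factors Myod1 and Myog had no counts in any of the 6 libraries. Strips held 132 to 170 CPM of Ckm.

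The CArG box, the motif that SRF binds, was searched in RefSeq promoter windows of GRCm38.p6 that span 250 bases before to 50 after a start. It was found for 2 of the 20 contractile genes with a window (10%), Myl9 and Vcl, neither of which was called. Of all 27025 genes with a window, 1.81% held it. Both shares follow from the genes chosen and say nothing about these libraries.

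Collagen genes shifted between types. Of 26 chains 14 rose and 3 fell, with a median of 1.00, and 5 fell without P plate replicate 1. Col3a1, the fibrillar collagen of reticular fibres, stood at 2570, 2400 and 3280 CPM in P plate and at 12200, 12000 and 11100 CPM in M scaffold. It rose by 2.09 ± 0.25 (adjusted p = 0.000165) without overlap. The chains of type I rose less: Col1a2 from 3300, 4870 and 5330 CPM to 7200, 9390 and 10900 CPM (1.03 ± 0.25, adjusted p = 0.0133), and Col1a1 from 5580, 4260 and 6010 CPM to 7740, 9170 and 13000 CPM (0.92 ± 0.26, adjusted p = 0.0263). The Col1a1 call was lost without P plate replicate 2 and without M scaffold replicate 3.

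The beaded-filament collagen VI rose in its 3 main chains. Col6a1 went from 226 to 330 CPM to 2010, 1980 and 3070 CPM (3.02, adjusted p = 1.75e-05), Col6a2 from 103 to 157 CPM to 1350, 1050 and 1920 CPM (3.44 ± 0.27) and Col6a3 from 75.0 to 301 CPM to 929 to 1200 CPM (2.66). Col18a1, a basement membrane collagen, rose from 54.5, 106 and 111 CPM to 980, 886 and 1260 CPM (3.52 ± 0.28, adjusted p = 1.78e-05). The falls were in Col12a1, from 1050, 2180 and 2140 CPM to 300, 153 and 647 CPM (-2.29 ± 0.46, adjusted p = 0.00493), in Col11a1, from 28.1 to 46.5 CPM to 3.98 to 14.8 CPM, and in Col4a1. Without M scaffold replicate 3 the value of Col12a1 was -2.98 and that of Col11a1 -2.81. Col4a1, a core chain of basement membranes, had an adjusted p of 0.0493 and kept its call in 2 of the 6 fits that left out a library.

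Elastic fibre, matricellular and cross-linking matrix genes went both ways, with 7 rises and 5 falls among 26. Thbs1, thrombospondin 1, which activates latent TGF-beta and binds cell surfaces (ENSMUSG00000040152, chromosome 2, 118111876 to 118127133, plus strand), stood at 8280, 7030 and 7860 CPM in P plate and at 1640, 2940 and 1780 CPM in M scaffold. It fell by 1.86 ± 0.25 (adjusted p = 0.000374), the largest drop in CPM of all called genes. Tnc, tenascin C, fell from 1900 to 2250 CPM to 671 to 885 CPM (-1.50, adjusted p = 9.92e-05), and Lox, the enzyme that cross-links collagen and elastin, from 1860 to 2410 CPM to 734 to 1080 CPM (-1.29, adjusted p = 0.000593). None of these 3 overlapped. Rises were led by Tnxb, tenascin X, from 7.24 to 17.8 CPM to 169 to 212 CPM (3.90 ± 0.33), and by the proteoglycan Fmod, from 10.6, 154 and 63.7 CPM to 864, 1320 and 604 CPM (3.61 ± 0.74; 4.65 without P plate replicate 2). Fn1, fibronectin, was at 15500, 3870 and 12400 CPM in P plate and at 5110, 3780 and 5820 CPM in M scaffold, and was not called (adjusted p = 0.0789). In the list 3 genes fell without M scaffold replicate 1, and 9 without both libraries that stood apart.

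Of 28 matrix proteases and inhibitors 7 rose and 5 fell. Timp3, an inhibitor of metalloproteases, fell from 944, 3970 and 3620 CPM to 661, 428 and 665 CPM (-2.28 ± 0.44, adjusted p = 0.00363). Timp1 fell from 1020, 385 and 1340 CPM to 103, 136 and 289 CPM (-2.37 ± 0.48). Neither inhibitor overlapped between the groups. Adamts15, a protease of the proteoglycan-cleaving group, rose from 1.54 to 5.45 CPM to 63.8, 127 and 96.1 CPM (4.81 ± 0.41, adjusted p = 2.91e-05). Integrins, laminins and other basement membrane genes gave 4 rises and 2 falls among 29, close to the shares over all genes. The counts moved with the libraries: 2 rose without P plate replicate 3 or M scaffold replicate 1, 6 fell without P plate replicate 1, 4 fell without M scaffold replicate 3, 1 fell without M scaffold replicate 2, and 7 rose and 9 fell without both libraries that stood apart. Lama5, a laminin chain, fell from 323, 734 and 636 CPM to 239 to 305 CPM (-1.10 ± 0.25, adjusted p = 0.00907), and Itga9, an integrin that binds tenascin C, rose by 2.01 ± 0.39 (adjusted p = 0.00375).

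Genes that YAP and SRF induce when actin tension is high were lower. Of 25 genes 11 fell and none rose, with a median of -0.76, and 7 fell without P plate replicate 3. Ankrd1, a direct YAP target (ENSMUSG00000024803, chromosome 19, 36111961 to 36120099, minus strand), stood at 81.2, 10.2 and 65.6 CPM in P plate and at 0.184, 1.71 and 0.316 CPM in M scaffold. The groups did not overlap and the fall was -6.24 ± 0.96 (adjusted p = 0.00091), or -7.56 without M scaffold replicate 2. Ccn2, the connective tissue growth factor, went from 1910, 984 and 2230 CPM to 71.9, 151 and 168 CPM (-3.71 ± 0.37, adjusted p = 6.64e-05). M plate held 7.54 to 12.5 CPM of Ankrd1 and 323 to 438 CPM of Ccn2, and M scaffold was lower than M plate for both (adjusted p = 0.0466 and 0.0459). Ccn1 fell from 604, 835 and 1440 CPM to 102, 121 and 339 CPM (-2.35 ± 0.52; -3.10 without M scaffold replicate 3), and Amotl2, a junction protein and YAP target, by 1.44 ± 0.29 (adjusted p = 0.0044). Actb, the cytoplasmic actin, was not called (adjusted p = 0.0606).

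**Figure D5:**
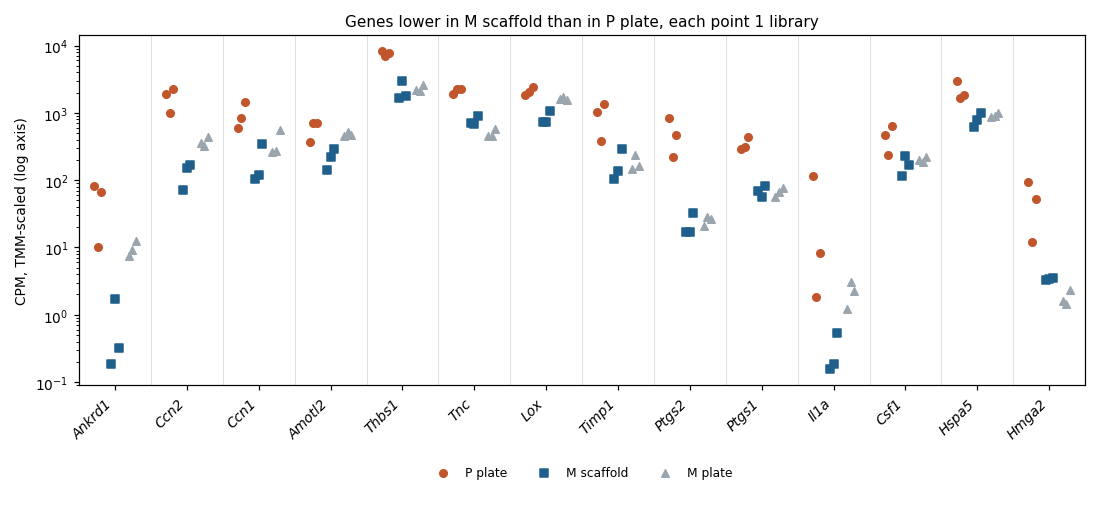
Each point is the level of 1 library in CPM on a log axis for 14 genes that fell: YAP targets (Ankrd1 to Amotl2), matrix genes (Thbs1 to Timp1), prostaglandin and cytokine genes (Ptgs2 to Csf1), the chaperone Hspa5 and the growth regulator Hmga2. P plate lies above M scaffold without overlap for each of them, and the third symbol shows M plate.

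TGF-beta genes gave 3 rises and 5 falls among 20, beside 15.1% and 9.61% of all tested genes. Smad7, the feedback inhibitor of the pathway, fell from 35.6, 73.6 and 61.8 CPM to 17.8 to 21.6 CPM (-1.50 ± 0.22, adjusted p = 0.000742), and Skil, another negative regulator, from 104 to 125 CPM to 67.5 to 80.7 CPM (-0.61 ± 0.13). Tgfbi, a matrix protein that TGF-beta induces, rose from 68.1 to 99.8 CPM to 163, 146 and 303 CPM (1.32 ± 0.26, adjusted p = 0.00388). Inhbb, an activin subunit, rose from 10.4 to 21.5 CPM to 121, 138 and 70.8 CPM (2.88 ± 0.36). The falls numbered 2 without M scaffold replicate 1 or 2 and 3 without P plate replicate 3, and 5 genes rose without both libraries that stood apart.

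M medium held Noggin, which acts on the BMP pathway, and R-spondin1, which acts on the Wnt pathway. In the BMP list 4 of 24 rose and 2 fell, close to the shares over all tested genes (15.1% and 9.61%). DESeq2 called 6 higher and 4 lower. The direct BMP targets Id1, Id2 and Id3 were not called, at adjusted p of 0.188, 0.0779 and 0.0637. Id1 stood at 42.9, 209 and 185 CPM in P plate and at 106, 79.2 and 49.6 CPM in M scaffold. In the list 7 genes fell without P plate replicate 1 and 1 without P plate replicate 3 or M scaffold replicate 2, and 7 rose without both libraries that stood apart. Bmp7 rose from 0.191 to 0.246 CPM to 2.77 to 6.10 CPM (4.23 ± 0.31, adjusted p = 1.55e-05), and Bmper, a modulator that binds BMPs, fell from 176, 402 and 512 CPM to 50.04 to 122 CPM (-2.22 ± 0.40).

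In the Wnt list 11 of 25 rose and 3 fell, with a median of 0.81, and 7 rose without P plate replicate 3 or without M scaffold replicate 1, while 1 fell without M scaffold replicate 2. Axin2, a general target of the canonical pathway, overlapped between the groups (5.45, 24.3 and 19.3 CPM against 41.7, 23.5 and 34.7 CPM, adjusted p = 0.106). Nkd1, a feedback inhibitor, rose from 22.1, 48.4 and 43.7 CPM to 170, 102 and 87.6 CPM (1.66, adjusted p = 0.00321). The secreted antagonist Sfrp1 rose from 305 to 335 CPM to 774, 1110 and 1610 CPM (1.85 ± 0.37, adjusted p = 0.00469). Lgr6, an R-spondin receptor, fell from 8.38, 9.93 and 21.8 CPM to 0.568 to 1.40 CPM (-3.95 ± 0.56, adjusted p = 0.000587).

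Cytokine, chemokine and prostaglandin genes gave 8 falls and 3 rises among 24, with 6 rises without P plate replicate 1 and 1 without P plate replicate 3. Ptgs2, the inducible cyclooxygenase COX-2 (ENSMUSG00000032487, chromosome 1, 150100031 to 150108227, plus strand), stood at 843, 222 and 461 CPM in P plate and at 17.2, 17.2 and 32.1 CPM in M scaffold. It fell by 4.52 ± 0.47 (adjusted p = 7.55e-05), and by 3.91 without P plate replicate 1. M plate held 20.7 to 28.2 CPM. Its constitutive relative Ptgs1 fell from 295 to 440 CPM to 56.0 to 82.8 CPM (-2.33, adjusted p = 3.82e-05). Il1a, an alarm cytokine, went from 115, 1.81 and 8.13 CPM to 0.154, 0.186 and 0.532 CPM (-6.97 ± 1.50, adjusted p = 0.00683). Its size rested on P plate replicate 1, without which the value was -3.90; without M scaffold replicate 3 it was -7.91. Csf1, a growth factor of macrophages, also fell (237 to 640 CPM against 114 to 226 CPM, adjusted p = 0.00993), whereas Il33, an alarm cytokine of stromal cells, rose from 13.3 to 18.8 CPM to 85.9, 175 and 164 CPM (3.14 ± 0.25, adjusted p = 1.92e-05). P plate replicate 1, the library rich in macrophage genes, was also the highest for Ptgs2 and Il1a, and the part of macrophages in these falls was not tested.

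M scaffold replicate 2 stood apart in chemokine and interferon genes. The chemokine Cxcl12 stood at 151, 1020 and 167 CPM in M scaffold and at 77.3 to 107 CPM in P plate, and Cxcl10 at 8.57, 115 and 6.91 CPM and at 6.4 to 14.3 CPM. In the interferon list 1 of 14 rose and none fell, Ifi205 from 0.891 to 3.29 CPM to 10.5, 42.6 and 24 CPM (3.68 ± 0.58, or 3.14 without M scaffold replicate 2). Without that library 2 genes of the list fell.

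Complement and acute phase proteins rose in 7 of 12 cases and none fell, with a median of 1.87. C3, the central complement protein, stood at 2220, 8600 and 4650 CPM in P plate and at 16000, 34900 and 19200 CPM in M scaffold, the largest gain in CPM of all called genes. It rose by 2.18 ± 0.50 (adjusted p = 0.00919), and by 2.77 without P plate replicate 2. M plate held 21200 to 29700 CPM. A2m, the protease trap alpha-2-macroglobulin (ENSMUSG00000030111, chromosome 6, 121635376 to 121679227, plus strand), stood at 77.9, 45.7 and 85.2 CPM in P plate and at 761, 1100 and 1400 CPM in M scaffold. Its rise was 3.97 ± 0.29 (adjusted p = 1.36e-05). M plate held 89.7 to 105 CPM, and M scaffold was above M plate by 3.45 (adjusted p = 0.00259).

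The amino acid and unfolded protein response was lower, with 8 falls and no rise among 14 genes and a median of -0.70. Hspa5, the chaperone BiP of the endoplasmic reticulum, stood at 2970, 1650 and 1860 CPM in P plate and at 623, 785 and 1000 CPM in M scaffold, a fall of 1.42 ± 0.25 (adjusted p = 0.00189). Chac1, a target of ATF4 that degrades glutathione, fell from 28.6 to 45.2 CPM to 14.1, 6.37 and 10.8 CPM (-1.88 ± 0.27, adjusted p = 0.000632), and Asns, asparagine synthetase, by 1.2 ± 0.29 (adjusted p = 0.0128). Atf4 itself fell from 342 to 461 CPM to 210 to 283 CPM (adjusted p = 0.00582). These 4 genes did not overlap between the groups.

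Glycolysis and hypoxia-inducible genes depended on 1 library. Of 30 genes 4 fell and none rose, with a median of -0.53, while 21 fell without M scaffold replicate 3, 2 without P plate replicate 1, and none without P plate replicate 3 or M scaffold replicate 1 or 2. DESeq2 called 7 of them lower. The summed list was at 10300, 9820 and 10800 CPM in P plate and at 5100, 3800 and 12000 CPM in M scaffold. Ldha, lactate dehydrogenase, stood at 1110, 960 and 1210 CPM in P plate and at 518, 352 and 1050 CPM in M scaffold (adjusted p = 0.114). Slc2a1, the basal glucose transporter, stood at 645, 257 and 411 CPM in P plate and at 84.8, 73.9 and 530 CPM in M scaffold. In both genes scaffold replicate 3 lay with the P plate libraries. Pkm, pyruvate kinase, fell from 1210 to 1630 CPM to 620, 408 and 1100 CPM (-1.05 ± 0.31, adjusted p = 0.0314), and Pfkfb3, which makes the activator of phosphofructokinase, from 89.1 to 171 CPM to 38.1, 40.2 and 96.7 CPM (-1.11 ± 0.34, adjusted p = 0.0376). Both calls were lost in 4 of the 6 fits that left out a library. Gapdh and Eno1 also fell, and each kept its call in 2 of the 6 fits that left out a library. Their counts are also uncertain because near-identical pseudogene copies can share their reads.

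The core of the hypoxia response element, ACGTG on either strand, was searched in the same RefSeq windows. It was found for 19 of the 27 members with a window (70.4%), against 21.8% of all 27025 genes. By window the share was 55.3% in the list and 19.6% of all 32851. The list was made of glycolysis and hypoxia-inducible genes, so its share follows from that choice and says nothing about these libraries. The cause of the differences among scaffold libraries was not tested. A match is a run of letters and not a measured binding site. Of the genes called lower, Pfkfb3, Pkm and Gapdh held it. The 150 bases before a start are given 5′ to 3′ for the 2 lower genes with a match there and for Ldha, whose windows hold 5 matches counting both strands, with matches in capitals:
Pfkfb3, chr2:11553930-11554079, minus strand: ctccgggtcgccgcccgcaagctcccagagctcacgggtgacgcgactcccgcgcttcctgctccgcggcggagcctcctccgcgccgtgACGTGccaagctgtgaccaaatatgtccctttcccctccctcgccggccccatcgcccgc
Pkm, chr9:59657077-59657226, plus strand: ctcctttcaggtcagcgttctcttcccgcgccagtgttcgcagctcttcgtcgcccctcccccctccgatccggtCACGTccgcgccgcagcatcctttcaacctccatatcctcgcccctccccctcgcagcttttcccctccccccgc
Ldha, chr7:46845654-46845803, plus strand: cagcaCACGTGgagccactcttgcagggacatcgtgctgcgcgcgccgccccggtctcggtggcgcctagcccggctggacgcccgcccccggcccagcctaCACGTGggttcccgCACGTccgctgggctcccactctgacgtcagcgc

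Nuclear genes of the respiratory chain gave 1 rise among 20 (3 without P plate replicate 3), Ppargc1a, a coactivator of mitochondrial biogenesis, from 0.575 to 1.72 CPM to 12.5, 9.57 and 3.87 CPM (3.11 ± 0.49, adjusted p = 0.00104; 3.75 without P plate replicate 2). Cholesterol synthesis gave 2 rises and 1 fall among 22 genes, and fatty acid synthesis gave 2 and 3 among 13. Over all tested genes the shares were 15.1% and 9.61%. Leaving out P plate replicate 3 or M scaffold replicate 3 ended both cholesterol rises, and 1 rise and no fall were left without M scaffold replicate 2. In the same list 4 genes fell without M scaffold replicate 3 and 2 without P plate replicate 2, and 1 fatty acid gene fell without P plate replicate 3. Glucocorticoid-responsive genes rose in 6 of 17 cases and fell in 2. The falls numbered 4 without M scaffold replicate 3 and 1 without P plate replicate 3, M scaffold replicate 1 or M scaffold replicate 2. Fkbp5, a co-chaperone of the glucocorticoid receptor, rose from 14.8 to 23.4 CPM to 37.4, 63.8 and 64.0 CPM (1.50 ± 0.24, adjusted p = 0.00115), and Zbtb16, a zinc-finger factor that glucocorticoids induce, from at most 0.615 CPM to 12.5, 8.82 and 8.03 CPM (5.27 ± 0.68; 7.01 without P plate replicate 2). Hsd11b1, which regenerates active glucocorticoid, stood at 19.3, 43.9 and 353 CPM in M scaffold and at 4.98 to 23.1 CPM in P plate. Its value moved from 3.27 (adjusted p = 0.0281) to 1.13 without M scaffold replicate 3, and the call was lost there and without P plate replicate 2 or 3.

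Retinoid genes rose in 3 of 18 cases and fell in 1, near the shares over all tested genes (15.1% and 9.61%). The falls numbered 4 without M scaffold replicate 3 and 2 without P plate replicate 1. Crabp2, a carrier of retinoic acid and a target of it, fell from 13.7, 18.2 and 31.7 CPM to 1.04, 0.652 and 3.74 CPM (-3.50 ± 0.59, adjusted p = 0.00171; -4.63 without M scaffold replicate 3). Rdh10, an enzyme of retinoic acid synthesis, rose from 14.4 to 22.5 CPM to 41.3, 67.2 and 77.2 CPM (1.77 ± 0.24) and was above M plate by 1.53 (adjusted p = 0.0141). Among 21 antioxidant, selenoprotein and iron genes 3 rose and 2 fell, again near those shares. In this list 5 fell without M scaffold replicate 3 and 1 without P plate replicate 1 or M scaffold replicate 2. None fell without P plate replicate 3 or M scaffold replicate 1. Gpx3, the secreted selenoprotein glutathione peroxidase, rose from 145 to 178 CPM to 1340, 1750 and 2100 CPM (3.45 ± 0.34, adjusted p = 5.55e-05).

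Insulin-like growth factor and imprinted growth genes rose in 9 of 19 cases and fell in 2, with a median of 0.73. The falls numbered 1 without P plate replicate 3 or M scaffold replicate 1 or 2, and 4 without both libraries that stood apart. Mest, an imprinted gene of mesoderm expressed from the paternal allele (ENSMUSG00000051855, chromosome 6, 30723547 to 30748465, plus strand), stood at 1.67, 1.41 and 1.37 CPM in P plate and at 106, 117 and 97.5 CPM in M scaffold. Libraries within each group were close, and the rise was 6.16 ± 0.21 (adjusted p = 3.48e-07). M plate held 65.7 to 96.9 CPM. H19, an imprinted non-coding RNA expressed from the maternal allele (ENSMUSG00000000031, chromosome 7, 142575529 to 142578143, minus strand), stood at 166, 292 and 238 CPM in P plate and at 5140, 4210 and 5530 CPM in M scaffold (4.42 ± 0.30, adjusted p = 1.17e-05). Its neighbour Igf2, the fetal growth factor, rose from 179, 832 and 530 CPM to 2130, 2100 and 1920 CPM (2.00, adjusted p = 0.00761). Hmga2, a chromatin factor of growing mesenchyme, fell from 92.7, 12.1 and 52.9 CPM to 3.29, 3.45 and 3.52 CPM (-3.94 ± 0.62, adjusted p = 0.00106; -3.21 without P plate replicate 1).

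No cell cycle or replication gene of 24 was called in either direction by edgeR, DESeq2 or limma-voom. At an unadjusted p under 0.05 in edgeR the number was 0, and the median was -0.06. Mki67, a marker of cycling cells, stood at 53.6, 21.6 and 67.2 CPM in P plate and at 49.6, 37.1 and 52.0 CPM in M scaffold (-0.04 ± 0.33, adjusted p = 0.954). P plate replicate 3 was the highest library for Mki67, and 6 genes of the list were higher in M scaffold without it, while 2 were lower without P plate replicate 2. Of 18 CDK inhibitor and p53 target genes 1 rose and 2 fell, beside 15.1% and 9.61% of all tested genes. The falls numbered 4 without P plate replicate 2 and none without P plate replicate 3 or M scaffold replicate 2. Cdkn1c, an imprinted CDK inhibitor, rose from 29.4, 12 and 5.90 CPM to 126, 184 and 201 CPM (3.43 ± 0.48, adjusted p = 0.000493; 4.28 without P plate replicate 1).

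Immediate early genes, which respond within minutes to stimuli and to handling, rose in 4 of 13 cases and fell in 1. Fosb went from 2.55 to 4.70 CPM to 29.5, 25.1 and 12.8 CPM (2.57 ± 0.59, adjusted p = 0.00972), and Atf3 from 22.1 to 44.1 CPM to 67.2, 88.2 and 190 CPM (1.85 ± 0.41). Fos and Jun were not called, at adjusted p of 0.432 and 0.114.

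The largest rise under the naming rule was in Nts, the gut peptide neurotensin that lymphatic and endocrine cells can make (ENSMUSG00000019890, chromosome 10, 102481756 to 102490486, minus strand). It had 1 count over P plate and stood at 92.5, 43.5 and 10.1 CPM in M scaffold. The ratio of levels was 3160, with a 95% counting interval of 567 to 125000 for counting error only. The fitted log2 fold change was 11.91, and 11.06 without M scaffold replicate 1, the highest library. Without P plate replicate 1, which held the only P plate count, it was 14.18, a value that then rests on the prior count. Scaffold replicate 3 was again the lowest, and M plate held 21.8 to 32.2 CPM. Over all genes, 24 had no P plate count and a mean of 1 CPM or more in M scaffold, and none showed the reverse. In the epithelial list 1 of 12 rose and 1 fell, and both genes, Chga and Krt20, were at 6.72 CPM or less in every library. In the adipocyte list 4 of 7 tested genes rose, above the 15.1% of all genes, with a median of 2.44, or 1.61 when the gene at 0 in P plate was set to its bound. Plin4, a lipid droplet protein, rose from 0.931 to 2.01 CPM to 45.3, 14.4 and 31.1 CPM (adjusted p = 0.000237), and Pparg, the adipogenic nuclear receptor, from 1.15 to 3.53 CPM to 6.14 to 7.03 CPM (1.61 on the log2 scale, adjusted p = 0.0112; 2.2 without P plate replicate 1). Adipoq, the defining adipokine, was at 0.0812 CPM or less.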

How the data were processed

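The values analysed were the raw counts per Ensembl gene that the authors deposited as 1 table, with 1 column per sample, although the series text speaks of 2 technical replicates. STAR 2.6.0 and GRCm38 (mm10) are named per the submitters' processing notes, and the TruSeq RNA Library Prep Kit v2 was used, per the labels' protocols. Which program, annotation and strand setting produced the counts was not given in the sources used here, so antisense and overlapping genes are uncertain. The 5 summary entries were left out, and 52403 of 52550 genes got a symbol and GRCm38 coordinates from GENCODE M21.

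Counts were filtered with filterByExpr and TMM-scaled in edgeR 4.0.16 (R 4.3.3). A quasi-likelihood model with group as its only term was fitted to all 12 libraries (8 residual degrees of freedom), and M scaffold was tested against P plate, two-sided, with Benjamini-Hochberg adjustment over 17700 genes and a threshold of 0.05. The comparison with M plate came from the same fit, and 3.18% of genes were called there. The script was tested on simulated data. Standard errors come from the F statistic. A group with no counts was set to a floor of 3 counts, 0.0299 CPM in P plate and 0.0171 CPM in M scaffold. Floors and intervals cover counting error only.

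Genes were named by rule: the 10 largest rises and falls without overlap at 20 CPM or more in the higher group, per list up to 5 called members on the side with more calls and 2 on the opposite one (2 CPM or more), a panel of markers, and the 5 largest CPM changes each way. Other members were named after their values were seen. The members and the 43 lists were chosen with earlier results of these data known. Alternatives were other size factors, DESeq2 1.42.0, limma-voom (limma 3.58.1), other filters, fewer libraries, a replicate block and a stricter threshold. A few members that the rule named are not reported here.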

Additional observations from a re-analysis of the deposited data

How the results depend on the processing

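Over all genes, against 2674 rises and 1701 falls (2229 and 588 at 2-fold or more), calls stayed within 1.5 times under RLE size factors, DESeq2, limma-voom and a stricter filter. With no low-count filter 1036 genes fell. Fitted on the 6 libraries compared, 1419 rose and 372 fell (1338 and 225 at 2-fold or more), and 1785 of the 4375 main calls were kept. That fit had fewer samples to estimate the spread and did not share it with M plate and strips. The part of either in the smaller counts was not tested. At a threshold of 0.01, 1776 rose and 596 fell (1647 and 278). Leaving out 1 library or the 2 that stood apart gave 2302 to 3247 rises and 912 to 2133 falls, and 2000 to 2510 rises and 376 to 865 falls at 2-fold or more. Without both P plate replicate 1 and M scaffold replicate 3, 3628 of the 4375 calls were kept in the same direction. Of 209 called genes under the naming rule, none reversed under any alternative run, and 206 of the 206 with a value were called by DESeq2, 194 of 209 by limma-voom and 151 of 209 at 0.01. Fitted on the 6 libraries compared, 124 of 208 stayed called. Without 1 library, 174 to 194 of 209 did. Counts within lists moved more: 11 macrophage genes fell in DESeq2, against 1 in edgeR.

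The labels do not say whether replicate numbers pair the libraries. Deviations from the group means correlated at -0.103, 0.127 and -0.002 between same-numbered libraries, and at -0.199 to 0.145 between the others. These values cannot decide the question, because deviations from a mean of 3 libraries depend on each other and 1 library stood apart in each group. With a replicate block in all 12 libraries 2544 genes rose and 1429 fell, and with a replicate block within the 6 libraries 811 rose and 104 fell (802 and 93 at 2-fold or more), where 92 of 208 named calls stayed.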
